A study of Mus musculus with 6 samples.

Results

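The genes described here drive or carry out cell division. They were chosen by symbol from a list of G1/S regulators, DNA replication genes and mitosis genes. All 44 genes on the list were among the 21878 genes with deposited counts, and all 44 were among the 14143 genes with enough counts to be tested. RNA sequencing had been done on thyroid glands of female mice at 12 weeks of age, with 3 Thy-Tet1+/+ mice and 3 mice labelled Thy-Tet1-/-, and the series asked how loss of TET1, an enzyme that oxidises methylated cytosine in DNA, changes the gland. The Thy-Tet1-/- mice carried a floxed *Tet1* allele and a thyroid-specific Cre transgene, so that deletion was aimed at follicular epithelial cells while the vessel, stromal and blood cells of the gland keep the gene. The controls were wild-type littermates, the genotype label reads WT for them and TET1 KO for the others, and no drug was given to either group. Whether the controls carried Cre is not given in the sources used here.

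Cells pass from G1 into S phase when D-type and E-type cyclins activate their kinases, RB is phosphorylated, and E2F factors switch on the genes that license and copy DNA. A second wave of genes, with cyclin B, CDK1 and the Aurora and Polo kinases, is switched on in G2 and drives chromosome segregation, and both waves are silent in resting cells. Follicular cells of the adult thyroid divide rarely, whereas immature T cells of the neighbouring thymus divide rapidly.

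The libraries held 8867683 to 19950898 counts, and 3 counts, taken as the floor, corresponded to 0.150 to 0.338 CPM (counts scaled to the library total), with counting error only. CPM values below use library sizes scaled by the trimmed mean of M-values (TMM), and values of a group are given in the order of its replicate numbers 1, 2 and 3. *Tet1* itself had 48, 71 and 62 counts in Thy-Tet1+/+ and 172, 162 and 241 counts in the libraries labelled Thy-Tet1-/-. These per-gene counts go against the label, so group names here are labels, and each direction given below is a direction between labels. Reads per exon were not available, so whether the floxed part of *Tet1* was lost could not be checked. The study reported lower TET1 protein in thyroid tissue of Thy-Tet1-/- mice. Thyroglobulin (*Tg*) made up 190900 to 313700 CPM in every library, whereas the pendrin gene *Slc26a4*, another thyroid marker, had 1 to 5 counts and was near absent. Fewer cells of a type and less RNA per cell cannot be told apart in such bulk tissue.

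The 44 genes showed a split by role. The 29 genes of DNA synthesis and mitosis were all highest in a single library, Thy-Tet1-/- 3. The 15 genes of G1 control (cyclins, kinases, inhibitors, RB and E2F) contributed every difference that met the limits for a call in the main edgeR fit, with all 6 libraries. In some other fits, given below, mitosis genes met them too. Of the 15 G1 control genes, 9 were also highest in library Thy-Tet1-/- 3, and over all tested genes it was the highest of the 6 in 20.4%. Its level relative to the median of the other 5 libraries had a median of 1.38 over the 15 genes and 7.17 over the 29. The summed level of the 29 genes was 305, 269 and 236 CPM in Thy-Tet1+/+ and 224, 200.4 and 936 CPM in the libraries labelled Thy-Tet1-/-. Without library 3 the Thy-Tet1-/- sums therefore lay below all 3 controls, and with it the group spanned them. The 15 G1 control genes summed to 1190, 1106 and 999.3 CPM and to 832, 781 and 962 CPM, so that all 3 Thy-Tet1+/+ sums lay above the others. *Ccnd2* alone gave 585.5, 463 and 363 CPM and 271, 241 and 260.3 CPM of these sums. The sums thus do not describe the 15 genes as a set. Their median log2 fold change (Thy-Tet1-/- minus Thy-Tet1+/+) was 0.27, with 10 positive. Without library Thy-Tet1-/- 3 it was -0.10, with 7 positive.

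**Figure D1:**
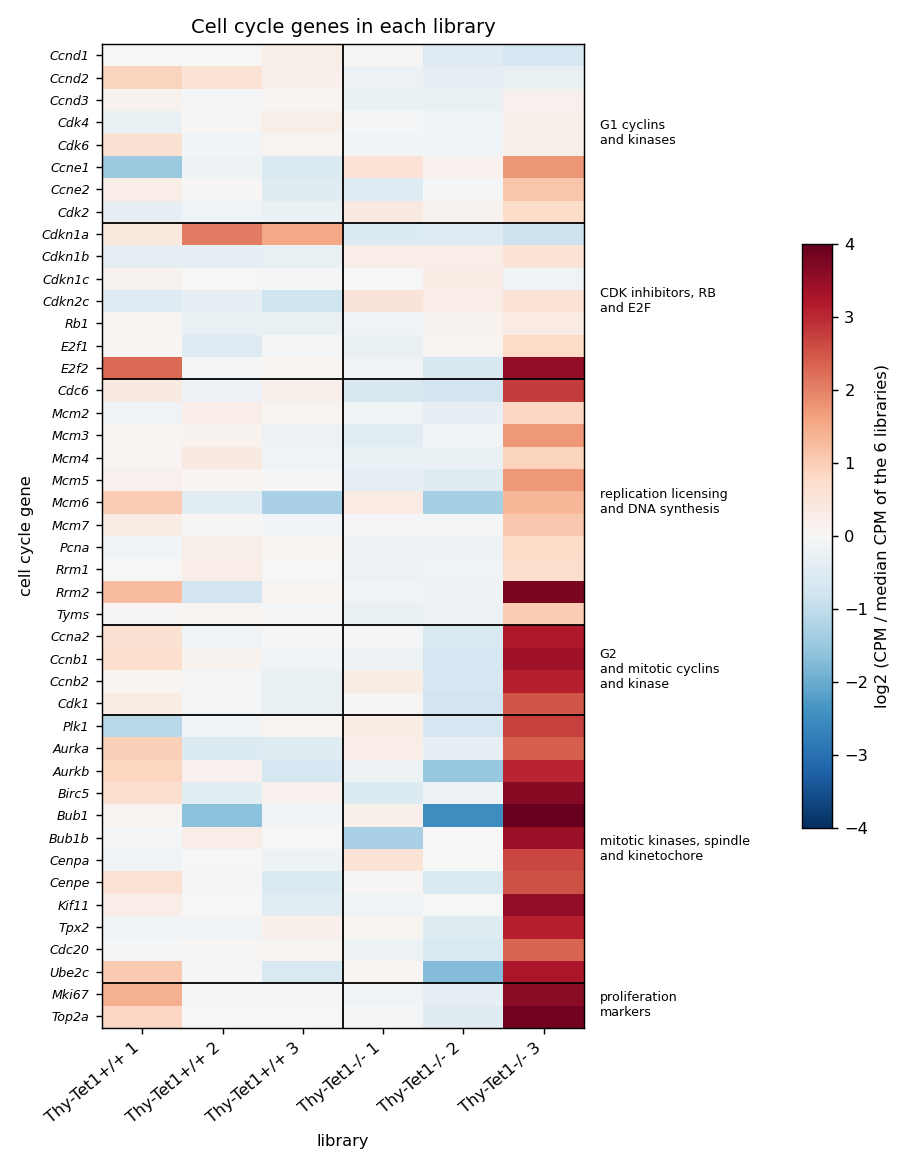
Heat map of the 44 cell cycle genes (rows, grouped by role) in the 6 libraries (columns). Colour is the log2 ratio of a gene's CPM in a library to its median over the 6 libraries. The S phase and mitosis rows are red in library Thy-Tet1-/- 3 and paler elsewhere, while *Cdkn1a*, *Ccnd2*, *Cdkn1b*, *Cdkn2c* and *Cdk2* separate the groups.

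The same library held transcripts of developing T cells. *Rag1*, which cuts the T cell receptor genes in thymocytes, had 41.5, 0.107 and 0 CPM in Thy-Tet1+/+ and 0.0545, 0 and 127 CPM in the libraries labelled Thy-Tet1-/-. *Dntt*, the terminal transferase of immature lymphocytes, had 20.8, 0.160 and 0.0555 CPM and 0.109, 0 and 140 CPM. *Cd8a*, a T cell co-receptor, had 29.5, 0.909 and 1.33 CPM and 0, 0.0592 and 101.1 CPM. Library Thy-Tet1-/- 3 was thus high and Thy-Tet1+/+ 1 was second in each, with the other 4 libraries near 0. Of 18 thymocyte and lymphocyte markers, 16 were highest in library Thy-Tet1-/- 3, and their summed level was 25.7 to 200.1 CPM over the Thy-Tet1+/+ libraries against 42.1, 29.7 and 777 CPM. The B cell marker *Ms4a1* had at most 6 counts in any library. Among the 29 S phase and mitosis genes, 16 were highest in Thy-Tet1-/- 3 and second highest in Thy-Tet1+/+ 1, the order seen for *Rag1*, *Dntt* and *Cd8a*. The rest had another library second, such as Thy-Tet1+/+ 2 for *Pcna* and Thy-Tet1-/- 1 for *Plk1*. Of the 15 G1 control genes, 3 had that order, and its share over all tested genes was not computed. Skeletal muscle markers, which also varied, summed to 986 to 7755 CPM in Thy-Tet1+/+ and to 125, 8986 and 20.7 CPM in the other group, with library Thy-Tet1-/- 3 the lowest. What part lymphoid cells or muscle had in the cell cycle values was not tested.

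**Figure D2:**
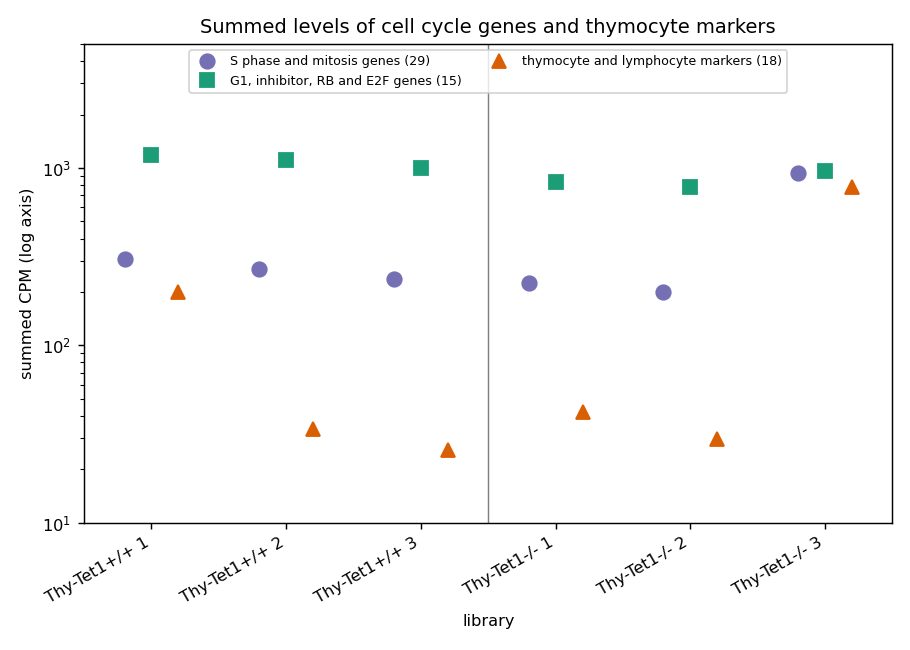
Summed CPM (log axis) per library of the 29 S phase and mitosis genes, the 15 G1 control genes and 18 thymocyte and lymphocyte markers, 1 symbol for each list and library. In library Thy-Tet1-/- 3 the S phase and mitosis sum is 936 CPM and the marker sum 777 CPM, whereas in the other 5 libraries they are at most 305 and 200.1 CPM.

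Counts were compared between groups with edgeR's quasi-likelihood test over all 14143 genes. A call needed a difference of over 1.5-fold, up or down, together with an unadjusted p under 0.05. Fold changes are fitted log2 values, Thy-Tet1-/- minus Thy-Tet1+/+, given with their standard error (SE). Of the 44 genes, 4 (9.09%) were higher in the libraries labelled Thy-Tet1-/-, namely *Ccne1*, *Cdk2*, *Cdkn1b* and *Cdkn2c*, against 5.54% of all tested genes. A further 2 (4.55%), *Ccnd2* and *Cdkn1a*, were lower, against 3.66% of all tested genes. Both shares lie near the background. The same 6 genes were those whose groups did not overlap, 4 with the Thy-Tet1-/- libraries above (12.5% of all tested genes) and 2 with them below (14.3%). An unadjusted p under 0.05 in edgeR was found for 6 of the 44 genes and for 2676 of the 14143 tested genes. None of the 44 had an adjusted p under 0.05 by edgeR with Benjamini-Hochberg adjustment, against 0.113% of all tested genes. The Wald test of DESeq2 gave an adjusted p to 36 of the 44 and placed 5 of them (13.9%) under that limit, these being the 6 genes without *Ccne1*, against 9.01% of all genes with such a p. *Mki67*, *Top2a*, *Rrm2* and *Ccnb1*, all highest in library Thy-Tet1-/- 3, were among the genes left without a p, so shares of the 36 omit them. By limma-voom 0 of the 44 had an adjusted p under 0.05, against 0.0919% of all tested genes. Without library Thy-Tet1-/- 3 only *Cdkn2c* met the limits as higher (background 5.05%), while *Ccnd2* and *Cdkn1a* still met them as lower (background 3.77%). Leaving out Thy-Tet1+/+ 1 as well, the other library with thymocyte transcripts, gave the same 3 genes, against backgrounds of 6.33% and 4.24%. With library Thy-Tet1-/- 3 kept and another of its group left out, the higher genes were more numerous. They were 9 of 44 (20.5%) without Thy-Tet1-/- 1, against 3.97% of all tested genes, and 13 of 44 (29.5%) without Thy-Tet1-/- 2, against 5.67%, in fits where library 3 was 1 of 2 in its group. The genes added in these fits were all of mitosis and proliferation, with *Kif11*, *Cenpa* and *Top2a* in both. DESeq2 called 10 of 36 (27.8%) higher at these limits, against 6.32%. Those it added, among them *Bub1*, *Plk1* and *Cenpa*, were mitosis genes too. With the muscle score as covariate, edgeR called 2 of 44 (4.55%), against 4.19%.

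*Cdkn1a* (NCBI gene 12575, chr17:29090979-29100722 in GRCm38) encodes p21, the CDK inhibitor induced by p53. It had 47.0, 150.0 and 105.6 CPM in Thy-Tet1+/+ and 24.6, 24.9 and 19.97 CPM in the libraries labelled Thy-Tet1-/-, a mean of 100.9 ± 51.7 CPM against 23.2 ± 2.78 CPM (SD, n = 3 each). All 3 Thy-Tet1-/- values lay below the lowest control, and the controls were widely spread while the others lay within 5 CPM of each other. The log2 fold change was -2.13 ± 0.40 (SE, adjusted p = 0.0912 by edgeR), the largest in size among the 15 G1 control genes, and the two-sided exact permutation test gave p = 0.1, the smallest that 3 against 3 allows. It was -2.04 without library Thy-Tet1-/- 3 and -2.37 without both libraries with thymocyte transcripts. *Cdkn1b* (NCBI gene 12576, chr6:134920401-134925525), which encodes the inhibitor p27 that holds cells in G1, went the other way. Its levels were 77.5, 79.5 and 80.2 CPM in Thy-Tet1+/+ and 118, 119 and 144.5 CPM in the libraries labelled Thy-Tet1-/-. The controls lay within 3 CPM of each other, and the log2 fold change was 0.69 ± 0.12 (SE, adjusted p = 0.0805 by edgeR). Without library Thy-Tet1-/- 3 it was 0.58, just under the limit of 1.5-fold, with an unadjusted p of 0.00212 in edgeR. *Cdkn2c* (NCBI gene 12580, chr4:109660876-109666756), which encodes p18, an inhibitor of CDK4 and CDK6, had 13.5, 15.4 and 11.2 CPM in Thy-Tet1+/+ and 27.8, 23.2 and 27.9 CPM in the libraries labelled Thy-Tet1-/-. Library 3 was close to library 1 there, and the log2 fold change was 0.98 ± 0.17 (SE, adjusted p = 0.0805 by edgeR) with it and 0.92 without it. Exons of *Cdkn1a* and *Ccnd2* overlap transcripts on the opposite strand that the count table does not list, by 273 and up to 372 bases. The 3 inhibitors with differences therefore did not share a direction.

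*Cdkn1c*, which encodes the related inhibitor p57, had 11.2, 10.3 and 9.60 CPM in Thy-Tet1+/+ and 9.92, 12.3 and 8.89 CPM in the libraries labelled Thy-Tet1-/-. These groups overlapped. *Rb1*, the retinoblastoma gene whose protein restrains E2F, had 38.8, 29.1 and 29.4 CPM and 32.7, 39.3 and 45.2 CPM, also with overlap. *E2f1*, an activating E2F factor, had 4.03, 2.67 and 3.61 CPM and 3.11, 4.15 and 6.66 CPM, again with overlap. *E2f2*, another activating E2F, had 14.6, 2.89 and 3.22 CPM and 2.78, 1.96 and 35.8 CPM. Library Thy-Tet1-/- 3 was at 12.4 times the median of the other 5 libraries, the highest such ratio among the 15 G1 control genes, and Thy-Tet1+/+ 1 was second.

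**Figure D3:**
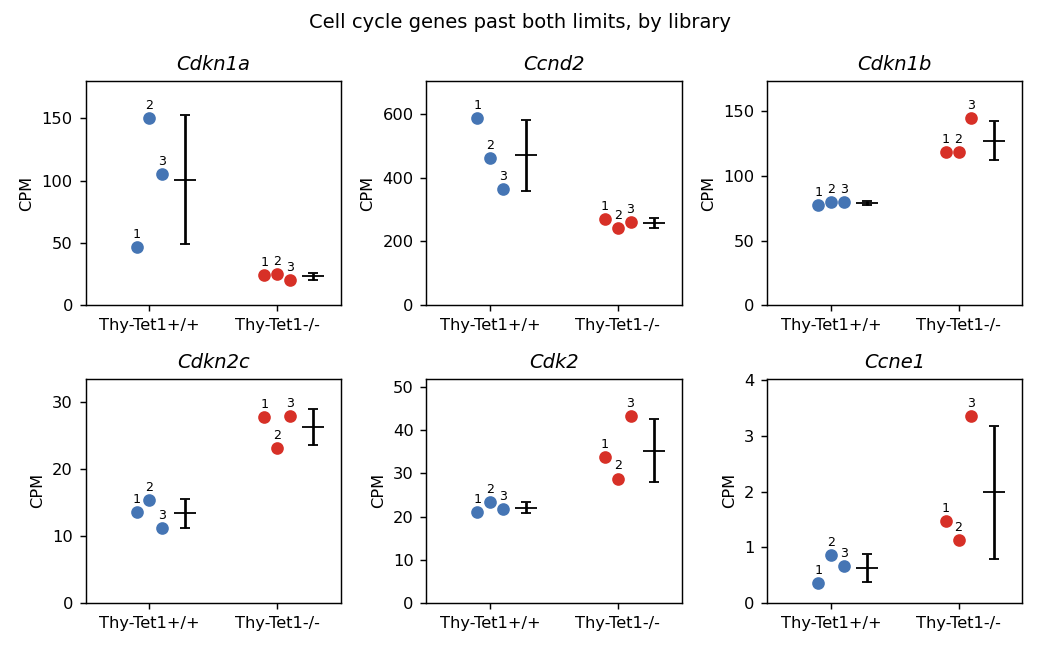
CPM of the 6 cell cycle genes that met both limits, on axes that start at 0. Each numbered point is 1 library, the number is its replicate number, and the bar beside the points is the mean ± SD of the 3 libraries. *Cdkn1a* and *Ccnd2* are lower and *Cdkn1b*, *Cdkn2c*, *Cdk2* and *Ccne1* higher in all 3 libraries labelled Thy-Tet1-/-, and each of those 4 is highest in library 3.

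The D-type cyclins, which couple growth signals to CDK4 and CDK6, differed in level and in contrast. *Ccnd2* (NCBI gene 12444, chr6:127125162-127152188) had 585.5, 463 and 363 CPM in Thy-Tet1+/+ and 271, 241 and 260.3 CPM in the libraries labelled Thy-Tet1-/-. Its groups stood apart, with a log2 fold change of -0.87 ± 0.19 (SE, adjusted p = 0.102 by edgeR) that was -0.88 without library Thy-Tet1-/- 3 and -0.69 without both libraries with thymocyte transcripts. *Ccnd1* had 42.7, 44.3 and 50.9 CPM and 45.3, 30.2 and 27.1 CPM, and its groups overlapped through Thy-Tet1-/- 1. Its log2 fold change was -0.43 ± 0.21 (SE, adjusted p = 0.323 by edgeR). *Ccnd3* had 164, 140 and 155 CPM and 124, 120.1 and 166 CPM, with overlap through library 3 and a log2 fold change of -0.16 ± 0.16 (SE, adjusted p = 0.632 by edgeR). Per kilobase of the longest transcript, the mean levels in Thy-Tet1+/+ were 74.3 CPM for *Ccnd2*, 72.3 CPM for *Ccnd3* and 12.3 CPM for *Ccnd1*, so that *Ccnd2* and *Ccnd3* were close on that scale and *Ccnd1* was lower. In the libraries labelled Thy-Tet1-/- the same levels were 40.7, 64.7 and 9.15 CPM per kilobase, with *Ccnd3* above *Ccnd2*.

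*Cdk4*, the main partner of the D-type cyclins together with *Cdk6*, had 62.2, 79.9 and 89.4 CPM in Thy-Tet1+/+ and 73.6, 71.1 and 87.5 CPM in the libraries labelled Thy-Tet1-/-. *Cdk6* had 104.5, 62.5 and 73.4 CPM and 62.4, 61.6 and 79.7 CPM. Both kinases overlapped between the groups. *Cdk2* (NCBI gene 12566, chr10:128697938-128705051), the partner of the E-type cyclins, had 21.0, 23.4 and 21.7 CPM and 33.7, 28.8 and 43.2 CPM. Its groups stood apart with a log2 fold change of 0.68 ± 0.17 (SE, adjusted p = 0.120 by edgeR), which without library Thy-Tet1-/- 3 was 0.50 and under the limit. *Ccne1* (NCBI gene 12447, chr7:38097984-38107490), an E-type cyclin that opens S phase, lay close to the floor in Thy-Tet1+/+ 1, with 0.356, 0.856 and 0.666 CPM and 1.47, 1.13 and 3.35 CPM. The groups did not overlap, yet library 3 was over 2 times the next value, and the log2 fold change went from 1.61 ± 0.58 (SE, adjusted p = 0.208 by edgeR) to 0.98 without that library, where its unadjusted p was 0.115 in edgeR. *Ccne2*, the second E-type cyclin, had 3.20, 2.73 and 1.89 CPM and 1.85, 2.61 and 5.74 CPM, with overlap.

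**Figure D4:**
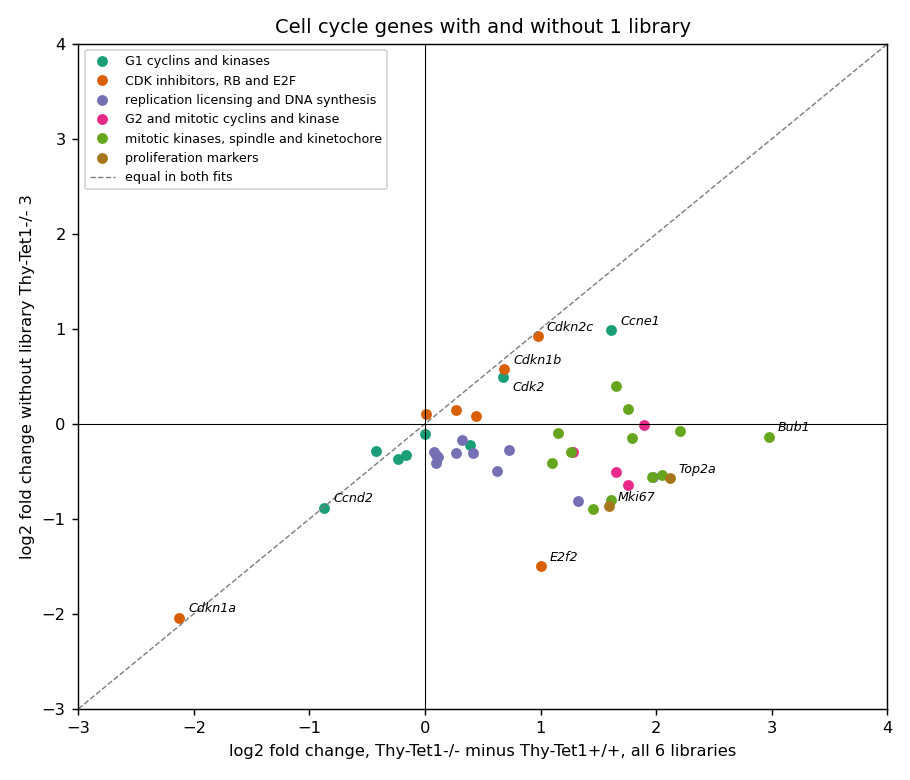
Log2 fold change (Thy-Tet1-/- minus Thy-Tet1+/+) of each of the 44 genes in the fit with all 6 libraries (horizontal axis) and without library Thy-Tet1-/- 3 (vertical axis), coloured by role. Points on the dashed line are equal in both fits. *Cdkn1a*, *Ccnd2* and *Cdkn2c* lie near the line, while 27 of the 29 S phase and mitosis genes move from above 0 to below 0.

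Across the 44 genes the median log2 fold change was 0.99, against 0.00 over all tested genes, and 39 were positive. Without library Thy-Tet1-/- 3 the median was -0.30, against -0.02 over all tested genes, and 35 of 44 were negative. In that fit 30 of the 44 changed sign, 27 of them S phase or mitosis genes. Without Thy-Tet1+/+ 1 as well, the median was -0.23 and 29 were negative. Adding the thymocyte score as a covariate gave 0.24, and adding the muscle score gave -0.25. The sign of the median thus turned when library Thy-Tet1-/- 3 was left out.

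The genes that rise together in dividing cells share short promoter motifs. The stretches of 120 bases before the RefSeq start of 7 genes are shown because they cover 4 mitosis genes with an excess in library Thy-Tet1-/- 3 (*Top2a*, *Kif11*, *Cdk1*, *Cdc20*), an S phase gene (*Mcm6*) and 2 genes that met the limits (*Cdk2*, *Cdkn2c*). They come from RefSeq on GRCm38.p6, read 5′ to 3′ on the strand of the gene, with matches in capitals. For *Top2a* the start is that of its promoter entry, which lies inside the gene span (to 99024199). Capitals mark the E2F letters TTCCCGC or TTGGCGC, the cell cycle genes homology region (CHR) letters TTTGAA or TTTAAA, and the NF-Y box letters CCAAT, each on either strand.
Top2a, chr11:99024190-99024309, minus strand: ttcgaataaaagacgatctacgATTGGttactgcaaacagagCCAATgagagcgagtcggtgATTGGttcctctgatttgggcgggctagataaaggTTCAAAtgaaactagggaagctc
Kif11, chr19:37376262-37376381, plus strand: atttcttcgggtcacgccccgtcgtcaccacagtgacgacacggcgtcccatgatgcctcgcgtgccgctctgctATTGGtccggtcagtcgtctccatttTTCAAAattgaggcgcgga
Cdk1, chr10:69352913-69353032, minus strand: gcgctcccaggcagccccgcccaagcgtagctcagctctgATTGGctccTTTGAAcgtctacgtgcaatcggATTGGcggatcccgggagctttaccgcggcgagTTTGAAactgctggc
Cdc20, chr4:118437344-118437463, minus strand: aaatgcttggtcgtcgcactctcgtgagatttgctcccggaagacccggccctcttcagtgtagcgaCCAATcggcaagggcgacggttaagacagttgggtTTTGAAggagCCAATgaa
Mcm6, chr1:128359706-128359825, minus strand: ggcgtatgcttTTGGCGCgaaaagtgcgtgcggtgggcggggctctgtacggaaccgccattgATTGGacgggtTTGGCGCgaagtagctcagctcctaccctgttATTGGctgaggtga
Cdk2, chr10:128705052-128705171, minus strand: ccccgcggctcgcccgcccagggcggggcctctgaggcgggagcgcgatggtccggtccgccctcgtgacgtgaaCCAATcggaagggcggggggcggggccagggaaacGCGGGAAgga
Cdkn2c, chr4:109666757-109666876, minus strand: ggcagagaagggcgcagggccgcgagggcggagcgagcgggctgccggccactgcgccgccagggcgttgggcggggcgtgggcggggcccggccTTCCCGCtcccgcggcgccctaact

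The 4 mitosis promoters shown each held CHR letters within 23 bases of the start and NF-Y letters upstream of them, and *Cdk1* held a second CHR match 71 bases before its start. The *Mcm6* window held E2F letters at 109 and 46 bases before the start, and the windows of *Cdk2* and *Cdkn2c* held 1 E2F match each, at 10 and 25 bases. Of the 44 genes, 35 had a RefSeq promoter of 250 bases before to 50 after the start. In that longer window CHR letters were present in 14 of 15 genes of mitosis and proliferation (93.3%), the exception being *Bub1*, against 22.5% of 10818 tested genes and 30.6% of all 27025 promoters. E2F letters were present in 6 of 10 DNA synthesis genes (*Cdc6*, *Mcm3*, *Mcm5*, *Mcm6*, *Mcm7* and *Rrm1*), against 13.6% of tested genes and 7.79% of all promoters. CCAAT letters were present in 14 of the 15 and 8 of the 10, against 42.5% and 41.1%. These are matches of letters only.

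**Figure D5:**
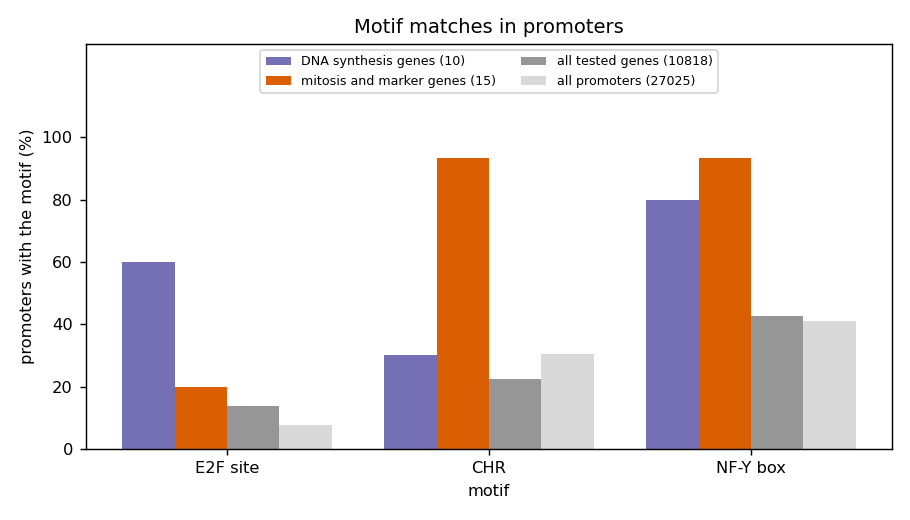
Share of promoters (percent) that hold the letters of an E2F site, a CHR or an NF-Y box in the window from 250 bases before to 50 bases after the start, for the DNA synthesis genes, the mitosis and proliferation genes, all tested genes and all promoters, with the number of promoters in brackets. CHR reaches 93.3% in the mitosis genes and E2F sites 60.0% in the DNA synthesis genes.

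The 11 genes of replication licensing and DNA synthesis were all highest in library Thy-Tet1-/- 3, by 1.63 to 15.0 times the median of the other 5 libraries, and none met the limits. Their adjusted p ranged from 0.414 to 0.911 by edgeR. *Cdc6*, which loads the helicase onto origins, had 1.31, 0.856 and 1.17 CPM in Thy-Tet1+/+ and 0.654, 0.592 and 7.01 CPM in the libraries labelled Thy-Tet1-/-. The helicase subunit *Mcm2* had 17.1, 22.5 and 20.5 CPM and 16.6, 15.1 and 33.5 CPM. *Mcm3* had 9.61, 10 and 7.60 CPM and 6.65, 8.41 and 29.9 CPM. In all 3 genes library 3 was the high value and Thy-Tet1-/- 1 and 2 lay below most controls. *Mcm5* had 11.3, 10.6 and 9.49 CPM and 7.79, 7.11 and 33.1 CPM. *Mcm6* had 29.8, 10.9 and 6.05 CPM and 18.7, 5.92 and 36.8 CPM. Unlike the other helicase subunits, *Mcm6* was also high in Thy-Tet1+/+ 1 and Thy-Tet1-/- 1. *Mcm4* and *Mcm7*, the remaining subunits, ranged from 13.8 to 30.9 CPM and from 25.0 to 56.2 CPM over the 6 libraries.

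*Pcna*, the sliding clamp of the replicative polymerases, had 46.4, 58.2 and 53.1 CPM in Thy-Tet1+/+ and 41.9, 42.4 and 83.8 CPM in the libraries labelled Thy-Tet1-/-. The fitted log2 fold change was 0.09 ± 0.29 (SE, adjusted p = 0.903 by edgeR) with all libraries and -0.33 without library 3. *Rrm1*, the large subunit of ribonucleotide reductase, had 39.0, 46.1 and 38.5 CPM and 33.2, 34.5 and 62.6 CPM. In both genes libraries Thy-Tet1-/- 1 and 2 lay below all 3 controls and library 3 above them. *Rrm2*, the small subunit that is made in S phase, had 5.81, 1.44 and 2.66 CPM and 2.23, 2.13 and 33.5 CPM. *Tyms*, the thymidylate synthase gene, had 9.37, 9.68 and 8.77 CPM and 7.41, 7.70 and 18.3 CPM. Library 3 exceeded the median of the others 15.0-fold for *Rrm2*, the steepest in this group, and 2.09-fold for *Tyms*. With both libraries that held thymocyte transcripts left out, 9 of these 11 genes were lower in the libraries labelled Thy-Tet1-/-, with a median log2 fold change of -0.32. In that fit *Mcm2* had -0.44 (unadjusted p = 0.0324 in edgeR) and *Pcna* -0.40 (unadjusted p = 0.0157 in edgeR), both inside the fold limit.

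The 4 genes of the cyclin A, cyclin B and CDK1 machinery, which takes cells through G2 into mitosis, were low in 5 libraries, at 0.948 to 5.22 CPM, and reached 11.9 to 31.4 CPM in library Thy-Tet1-/- 3. *Ccna2* had 5.22, 3.10 and 3.55 CPM in Thy-Tet1+/+ and 3.27, 2.25 and 31.4 CPM in the libraries labelled Thy-Tet1-/-. *Ccnb1* had 2.37, 1.66 and 1.33 CPM and 1.31, 0.948 and 15.7 CPM. *Ccnb2* had 1.78, 1.60 and 1.39 CPM and 2.07, 1.07 and 14.5 CPM. The groups overlapped for each cyclin, with Thy-Tet1-/- 2 the lowest library and Thy-Tet1-/- 3 the highest. *Cdk1*, the kinase that these cyclins activate, had 2.61, 2.03 and 1.72 CPM and 2.18, 1.24 and 11.9 CPM. Its log2 fold change was 1.28 ± 0.83 (SE, adjusted p = 0.451 by edgeR), and -0.30 without library 3. *Ccnb1* gave 1.76 ± 1.08 (SE, adjusted p = 0.427 by edgeR) and -0.64.

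The 12 mitotic kinases, spindle and kinetochore genes were likewise highest in library Thy-Tet1-/- 3, by 5.24 to 17.8 times the median of the other 5, and their adjusted p ranged from 0.274 to 0.532 by edgeR. *Plk1*, the Polo kinase of mitotic entry, had 0.831, 1.66 and 1.94 CPM in Thy-Tet1+/+ and 2.23, 1.13 and 11.9 CPM in the libraries labelled Thy-Tet1-/-. *Aurka*, the centrosomal Aurora kinase, had 2.73, 0.963 and 0.999 CPM and 1.69, 1.13 and 7.32 CPM. *Aurkb*, the Aurora kinase of the chromosomal passenger complex, had 2.14, 1.34 and 0.721 CPM and 1.04, 0.415 and 9.81 CPM. The 3 kinases overlapped between the groups and stayed under 3 CPM outside library 3. *Birc5* (survivin), a partner of Aurora B, had 2.02, 0.963 and 1.44 CPM and 0.872, 1.13 and 16.0 CPM. *Cenpa*, the histone variant of centromeres, had 1.78, 1.98 and 1.72 CPM and 2.89, 1.96 and 12.5 CPM. *Cenpe*, a kinetochore motor, had 5.81, 3.74 and 2.61 CPM and 3.98, 2.55 and 22.4 CPM. *Cenpa* and *Plk1* were the 2 genes among the 29 whose fold change stayed positive without library 3, at 0.40 and 0.15. *Ube2c*, the ubiquitin-conjugating enzyme of the anaphase-promoting complex, had 3.32, 1.497 and 1.05 CPM and 1.69, 0.474 and 15.3 CPM. It shares 592 bases of exon with the muscle gene *Tnnc2* on the opposite strand. *Ube2c* was lowest in Thy-Tet1-/- 2, the library with the most muscle transcripts. What the overlap adds to its counts was not tested. The 5 remaining genes (*Bub1*, *Bub1b*, *Kif11*, *Tpx2* and *Cdc20*) spanned 0.118 to 3.56 CPM in 5 libraries and 10.9 to 34.4 CPM in library 3, with *Bub1*, a checkpoint kinase at or under the floor in Thy-Tet1-/- 2, giving the ratio of 17.8.

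*Mki67*, the gene of the Ki-67 antigen used to count cycling cells, had 28.4, 10.1 and 10.9 CPM in Thy-Tet1+/+ and 9.59, 8.18 and 128 CPM in the libraries labelled Thy-Tet1-/-. *Top2a*, the topoisomerase that untangles sister chromatids, had 13.1, 7.43 and 7.27 CPM and 7.14, 5.21 and 106 CPM. Library Thy-Tet1-/- 3 was 12.8 and 14.7 times the median of the other 5 libraries for these markers, and Thy-Tet1+/+ 1 was second in both. The log2 fold change was 1.59 ± 1.10 (SE, adjusted p = 0.482 by edgeR) for *Mki67* and 2.12 ± 1.14 (SE, adjusted p = 0.368 by edgeR) for *Top2a*. Without library 3 they were -0.87 and -0.57, and without Thy-Tet1+/+ 1 as well they were -0.24 and -0.25. No difference between the groups was thus detectable for either marker, and the sign rested on 1 library.

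Other genes of the pathway were read from lists that hold none of the 44. Of 21 tested S phase genes, 3 were higher and 0 lower at the same limits (background 5.54% and 3.66%), with a median log2 fold change of 0.40, and 20 were highest in library Thy-Tet1-/- 3. Of 29 tested mitosis genes, 3 were higher and 0 lower, with a median of 1.21, and 27 were highest in that library. Without it the medians were 0.00 and -0.14, with 1 higher and 1 lower S phase gene and 1 higher and 0 lower mitosis gene. *Gmnn*, which encodes geminin, the inhibitor of origin licensing, had 20.3, 23.4 and 19.4 CPM in Thy-Tet1+/+ and 30.8, 31.7 and 39.8 CPM in the libraries labelled Thy-Tet1-/-. *Tk1*, thymidine kinase, had 3.09, 4.49 and 4.11 CPM and 8.34, 5.57 and 17.3 CPM. *Cdc25b*, a phosphatase that activates CDK1, had 14.7, 7.97 and 9.10 CPM and 22.2, 19.5 and 31.0 CPM. The groups did not overlap for these 3 genes (12.5% of all tested genes), and without library 3 the log2 fold changes were 0.56, 0.82 and 0.99, which leaves *Gmnn* under the limit. *Pole*, *Mybl2* and *Ncaph* also met the limits with all libraries, and without library 3 their unadjusted p were 0.265, 0.157 and 0.288 in edgeR.

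Of 24 tested genes of G1 control and the DREAM complex, which represses cell cycle genes in resting cells, 3 were higher and 0 lower (background 5.54% and 3.66%), with a median of 0.24, and 2 were higher and 1 lower without library 3 (background 5.05% and 3.77%). *Lin52*, a DREAM subunit, had 9.85, 12.7 and 14.3 CPM in Thy-Tet1+/+ and 19.3, 21.3 and 20.3 CPM in the libraries labelled Thy-Tet1-/-, a log2 fold change of 0.72 ± 0.18 (SE, adjusted p = 0.116 by edgeR). *Tob1*, an antiproliferative gene, had 42.0, 41.8 and 55.2 CPM and 81.9, 72.0 and 57.5 CPM. *Cdkn2d*, which encodes p19, another inhibitor of CDK4 and CDK6, had 6.53, 7.01 and 8.16 CPM and 11.1, 10.3 and 17.4 CPM. As with *Cdkn2c* and *Cdkn1b*, the Thy-Tet1-/- libraries lay above all controls for each of these (12.5% of all tested genes). Without library 3 the log2 fold change of *Cdkn2d* was 0.55 and under the limit, while *Lin52* and *Tob1* still met both limits. Of 12 tested p53 target genes, 1 was higher and 1 lower (background 5.54% and 3.66%), with a median of -0.18. *Aen*, a p53-induced nuclease, had 18.4, 14.8 and 18.03 CPM and 8.99, 11.1 and 9.96 CPM, lower like *Cdkn1a*, whereas *Plk2*, a kinase that p53 also induces, had 36.3, 22.5 and 37.6 CPM and 54.2, 55.8 and 52.6 CPM. Both kept to their side of the limits without library 3.

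Of 85 tested genes that the deposited annotation places in the KEGG cell cycle pathway beyond the 44, 4 were higher and 2 lower (background 5.54% and 3.66%), with a median of 0.04. Without library 3, 2 were higher and 2 lower (background 5.05% and 3.77%). Besides *Cdc25b* and *Cdkn2d*, the higher genes were *Chek2*, a DNA damage checkpoint kinase, and *Tgfb2*, a ligand that restrains epithelial growth. *Chek2* had 2.49, 3.58 and 3.33 CPM in Thy-Tet1+/+ and 7.25, 4.62 and 5.89 CPM in the libraries labelled Thy-Tet1-/-. *Tgfb2* had 3.09, 3.00 and 3.16 CPM and 4.25, 5.98 and 4.78 CPM. Neither pair of groups overlapped, and library 3 was not the highest for either. Without it *Tgfb2* had an unadjusted p of 0.0517 in edgeR and lost its call. *Ywhaz*, which encodes a 14-3-3 protein that binds phosphorylated CDC25, had 331, 296 and 299.9 CPM and 186, 199 and 208 CPM, with a log2 fold change of -0.64 ± 0.11 (SE, adjusted p = 0.0817 by edgeR). *Gadd45g*, a growth arrest gene, had 6.05, 25.2 and 26.8 CPM and 9.42, 7.52 and 5.84 CPM, so that Thy-Tet1+/+ 1 lay among the other group, and without library 3 its unadjusted p was 0.101 in edgeR.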

How the data were processed

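The authors deposited raw read counts per gene for 6 libraries, whole numbers without normalization. The submitters' processing notes name the build mm10, and the aligner, the counting program and its use of strand are not given in the sources used here. The deposited protocol describes poly(A)-selected libraries and speaks of retinas, although the stated tissue is thyroid. 27 symbols that had become dates were restored from their gene identifiers.

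Genes were filtered by filterByExpr, scaled by TMM and tested with edgeR 4.0.16 (glmQLFit, glmQLFTest) in R 4.3.3, with Benjamini-Hochberg adjustment over 14143 genes. The limits on fold change and p follow the legend of the study. Alternatives used DESeq2 1.42.0, limma-voom (limma 3.58.1), other filters and scalings, covariates, a replicate block and libraries left out. The code was tested on simulated data. The 44 genes and all lists were chosen with earlier results of these data known. The named genes were fixed by role in the list, plus genes of the other lists that met the limits. Promoters came from RefSeq (GRCm38.p6), and exon overlaps and transcript lengths from GENCODE M21. Exons of *Ccnd2*, *Cdkn1a*, *Cdk2*, *Cdk4*, *Ccne2*, *Ccna2* and *Ube2c*, among others, overlap a gene on the opposite strand, so part of their counts is uncertain. Replicates of a group differed by more than sampling noise, so none was counted as a duplicate. p-values set the difference between the groups against the spread between the libraries of 3 mice a group. That spread includes the differences in muscle and thymocyte transcripts between libraries. Some details of the mouse model and of the marker genes are not reported here.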

Additional observations from a re-analysis of the deposited data

How the results depend on the processing

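Of the 44 genes, 2 were lower at the limits, a count that was 2 or 3 in all 16 alternatives. Over the fits 2.2% to 4.78% of all genes were lower. *Ccnd2*, *Cdkn1a* and *Cdkn2c* met the limits in all 16 alternatives. The number of higher genes was 4 with all libraries (5.54% of all genes). It was 10 of 36 by DESeq2 (6.32% of all genes), which also placed 5 genes under an adjusted p of 0.05 (9.01% of all genes), and 2 with the muscle score as covariate (4.19%). Leaving out 1 library gave 1 to 13 higher genes, 9 without Thy-Tet1-/- 1 (3.97% of all genes), 13 without Thy-Tet1-/- 2 (5.67%) and 1 without Thy-Tet1-/- 3 (5.05%). Leaving out both libraries with thymocyte transcripts, an alternative chosen after seeing the data, gave 1 (6.33%). The cause was not tested.

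The median over the 44 genes ranged from -0.30 to 1.28 with 1 library left out, was -0.25 with the muscle covariate and -0.23 without both libraries. By role, the muscle covariate gave medians of -0.27 for DNA synthesis, -0.37 for cyclins A and B with CDK1, -0.075 for mitotic genes and -0.47 for the markers. Without Thy-Tet1-/- 3 these were -0.33, -0.40, -0.22 and -0.72, the low ends of ranges that reached 0.50, 2.18, 2.17 and 2.35 with other libraries left out, and without both libraries -0.32, -0.20, -0.15 and -0.25. Scaling to follicular markers moved the median of all genes to 0.116 and that of the G1 cyclins and kinases to 0.041, so relative to that shift it stayed negative. Single genes that reversed with the muscle covariate were *Mki67* (-0.59), *Top2a* (-0.34), *Pcna* (-0.27), *Mcm5* (-0.36), *Rrm2* (-0.19), *Ccnb1* (-0.45) and *Cdk1* (-0.36). Without Thy-Tet1-/- 3 they were -0.87, -0.57, -0.33, -0.49, -0.56, -0.64 and -0.30, against at most 2.21, 2.62, 0.24, 0.95, 2.62, 2.24 and 1.73 with another library left out. Without both libraries *Mki67* was -0.24, *Top2a* -0.25, *Pcna* -0.40, *Mcm5* -0.43, *Ccnb1* -0.40 and *Cdk1* -0.13, while *Rrm2* stayed positive at 0.09. *Pcna* was -0.067 with the thymocyte covariate.

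Of 150 other tested cell cycle genes, 12 were higher (8.0%, against 5.54% of all genes) and 3 lower (2.0%, against 3.66%). The higher count was 20 of 147 by DESeq2 (13.6%, against 6.32%), 5 of 150 with the muscle covariate (3.33%, against 4.19%), 6 of 150 without both libraries (4.0%, against 6.33%) and 6 to 26 with 1 library left out, the highest being 17.2% against 5.67% without Thy-Tet1-/- 2. The lower count was 1 with follicular scaling (0.667%, against 2.2%), 8 without both libraries (5.33%, against 4.24%) and 2 to 5 with 1 library left out, the 5 being 3.33% against 3.77% without Thy-Tet1-/- 3.

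Whether replicate numbers pair the mice is not given in the sources used here. Same-numbered libraries correlated at -0.17, -0.37 and -0.19 in their deviations from the group means. Deviations within a group depend on each other, so these values cannot decide it. With the replicate block 3 of the 44 genes were higher (6.82%, against 5.05% of all genes) and 2 lower (4.55%, against 3.05%). In that fit the median was 0.39, and *Ccne1* had an unadjusted p of 0.0523 in edgeR.

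The spread between mice, a coefficient of variation of 0.327, limits these comparisons more than depth, except for genes near 1 CPM.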
